A study of Mus musculus with 144 samples.

Results

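The enzymes described here act in or beside the tricarboxylic acid (TCA) cycle and are encoded by Cs, Aco1, Idh1, Idh2, Idh3a, Ogdh, Fh1, Mdh1 and Mdh2. These are 9 of the 55359 genes counted, taken by name whatever their expression, and all 9 passed the filter on low counts in every comparison. Primary mouse hepatocytes, freshly isolated liver parenchymal cells kept in culture, were treated with 10 nM TCDD (2,3,7,8-tetrachlorodibenzo-p-dioxin, a ligand of the aryl hydrocarbon receptor, AHR) or with DMSO vehicle. RNA was sequenced at 2, 4, 8 and 12 h, at 24 and 48 h, and at 72, 96 and 120 h, with 4 libraries in each of the 36 groups. The hepatocytes came from male mice labelled with an age of 28 day, either C57BL/6NCrl animals (WT) or animals of the Pkm-delta-DRE strain (PkmΔDRE). PkmΔDRE mice carry a homozygous whole-body deletion, made with CRISPR, of the core of a dioxin response element (DRE, the AHR binding motif) inside Pkm, the gene of pyruvate kinase M, on a C57BL/6N background. All groups, controls included, attached in serum and were then kept serum-free with insulin, transferrin, selenium and dexamethasone. No source states that the 4 libraries of a group came from separate animals or cultures, so the p-values measure the spread between these libraries, which may be technical.

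In the cycle, citrate synthase joins acetyl-CoA to oxaloacetate, and successive dehydrogenases oxidise the product and pass electrons to the respiratory chain. Several of the 9 genes encode proteins outside the mitochondrial cycle proper: Aco1 is the cytosolic aconitase, which doubles as an iron-sensing RNA-binding protein, Idh1 is the cytosolic and peroxisomal NADP-dependent isocitrate dehydrogenase, Idh2 its mitochondrial NADP-dependent counterpart, and Mdh1 the cytosolic malate dehydrogenase of the malate-aspartate shuttle. Cs, Idh3a (the catalytic subunit of the NAD-dependent isocitrate dehydrogenase), Ogdh (the first component of the 2-oxoglutarate dehydrogenase complex), Fh1 (fumarate hydratase) and Mdh2 (mitochondrial malate dehydrogenase) carry steps of the cycle itself. In GRCm38 (GENCODE M21) the genes lie at chr10:128337734-128362479 (Cs, ENSMUSG00000005683), chr4:40143081-40198338 (Aco1, ENSMUSG00000028405), chr1:65158616-65186500 (Idh1, ENSMUSG00000025950), chr7:80094846-80115392 (Idh2, ENSMUSG00000030541), chr9:54586334-54604661 (Idh3a, ENSMUSG00000032279), chr11:6291633-6356642 (Ogdh, ENSMUSG00000020456), chr1:175600374-175625635 (Fh1, ENSMUSG00000026526), chr11:21556787-21572367 (Mdh1, ENSMUSG00000020321) and chr5:135778480-135790398 (Mdh2, ENSMUSG00000019179), and the counts were made on GRCm39. In liver these enzymes also supply carbon for gluconeogenesis and lipid synthesis and, through Idh1 and Idh2, NADPH.

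Before the results, the libraries were checked against their labels. Gene counts ranged from 13588848 to 30719161 per library (median 18011825). Cyp1a1, the classical AHR target, rose with TCDD under both labels, at 8 h from a mean of 2.99 to 2316 CPM (read counts scaled to a common library size) in libraries labelled WT and from 2.67 to 3754 CPM in those labelled PkmΔDRE, but 4 libraries labelled WT held Cyp1a1 levels of the opposite treatment (TCDD replicate 4 at 2 h, TCDD replicate 4 at 72 h, vehicle replicate 1 at 48 h and vehicle replicate 3 at 96 h). Leaving out each left the count of called enzymes in its TCDD comparison as it was. Pkm went against the genotype labels, since a response of Pkm to TCDD through the deleted element would be looked for under the WT label. Its mean at 8 h was 62.4 CPM with vehicle and 45.6 CPM with TCDD in the libraries labelled WT, and 54.9 and 130 CPM in those labelled PkmΔDRE; at 12 h the pairs were 41.4 and 46.6 CPM against 47.7 and 157 CPM. At 24 h they were 87.6 and 82.97 CPM against 161 and 428.5 CPM, and at 48 h 458 and 438 CPM against 449.6 and 934 CPM. None of these Pkm differences passed the test, with adjusted p between 0.123 and 0.9999 (edgeR quasi-likelihood test, Benjamini-Hochberg), while at 96 h under the WT label Pkm was called lower with TCDD (−0.73, adjusted p = 0.00376), and the genotypes are therefore given throughout as labels. Each library was also correlated over 12243 genes with the mean of each hour: 26 were nearest to the hour before or after their own and all others but 3 to their own hour, and of those 3 vehicle replicate 4 at 4 h labelled PkmΔDRE was nearest to 96 h (r = 0.977 against 0.773 for its own hour), vehicle replicate 4 at 96 h labelled PkmΔDRE was nearest to 4 h (0.980 against 0.768), and vehicle replicate 1 at 72 h labelled PkmΔDRE was nearest to 120 h (0.980 against 0.954). TCDD results that rest on these 3 libraries are given with and without them. Levels, values for time in culture, neighbouring hours and correlations keep all 3 unless stated. Of the 8 hepatocyte markers, albumin (Alb) lay between 1967 and 171551 CPM over the libraries. Cyp2e1 had no count in 4 libraries and Asgr1 went down to 0.08 CPM. Markers of T and B cells summed to at most 2.31 CPM.

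Sequences are shown for the start regions of Idh1, Idh2 and Fh1: Idh1 and Idh2 were the isocitrate dehydrogenases that moved in opposite directions with TCDD at 8 h under the WT label, and Fh1 is among the enzymes that did not pass there. The 250 bases before each annotated start (RefSeq, GRCm38.p6) were searched for the DRE core GCGTG on both strands, its complement being CACGC. RefSeq windows matched 8 of the 9 genes, all but Idh3a, and 5 of those held a core in at least 1 window. Over all 32851 windows the share with a core was 28.2%. That share is by window and the count is by gene, with more than 1 window for Idh1 and Ogdh, so they are not comparable. Of the genes called at 8 h, Idh2 had a core 73 bases and Mdh2 a core 97 bases before the RefSeq start. Idh1 had none before its first listed RefSeq start and 1 before its second. RefSeq starts can lie apart from the GENCODE gene boundaries given above. The Mdh2 core and the Idh1 core lie inside those GENCODE spans, not upstream of them. Fh1 had a core 8 bases before its start, and Ogdh had cores before several of its starts, while Cs, Aco1 and Mdh1 had none. A core in capitals is a match of letters, not a measured binding site. The bases outside the transcribed gene are printed 5′ to 3′ on the gene's strand, the minus strand in each case, for Idh1 at chr1:65186501-65186729, Idh2 at chr7:80115393-80115600 and Fh1 at chr1:175625636-175625885, with GCGTG in capitals.
Idh1: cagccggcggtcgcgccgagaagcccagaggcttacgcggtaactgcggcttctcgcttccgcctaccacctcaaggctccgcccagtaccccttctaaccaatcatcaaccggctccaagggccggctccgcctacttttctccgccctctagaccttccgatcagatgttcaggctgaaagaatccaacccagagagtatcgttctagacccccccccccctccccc
Idh2: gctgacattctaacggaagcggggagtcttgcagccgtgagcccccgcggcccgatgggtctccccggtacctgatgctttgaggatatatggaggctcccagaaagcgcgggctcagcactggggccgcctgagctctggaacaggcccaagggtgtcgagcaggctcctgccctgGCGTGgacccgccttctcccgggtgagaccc
Fh1: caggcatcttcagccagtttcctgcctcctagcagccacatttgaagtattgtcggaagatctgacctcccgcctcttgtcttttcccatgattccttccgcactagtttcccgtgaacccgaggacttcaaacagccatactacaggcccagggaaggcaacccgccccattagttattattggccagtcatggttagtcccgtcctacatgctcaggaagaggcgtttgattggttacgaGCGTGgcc

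The enzymes differed widely in transcript level. Scaled to exon length, the median over the 36 group means was 96.4 CPM per kb for Mdh2, 74 for Mdh1, 63.9 for Idh1, 62.2 for Aco1, 59.8 for Ogdh, 41.1 for Fh1, 37.6 for Idh2, 37.1 for Cs and 6.18 CPM per kb for Idh3a. The order changed with time in culture. In vehicle-treated libraries labelled WT, Mdh1 was at 342 ± 27.5 CPM per kb at 2 h (SD, n = 4), ahead of Fh1 at 105.2 ± 8.19, Mdh2 at 93.5 ± 10.1 and Idh1 at 93.1 ± 18.6 CPM per kb, and the latter 3 lay within their spread of each other. At 24 h Mdh2 led with 142.7 ± 23.4 CPM per kb and Mdh1 stood at 75.9 ± 5.42. At 120 h Mdh2 (66.6 ± 14.2) and Idh1 (66.6 ± 3.12 CPM per kb) were level, and Mdh1, Idh2, Ogdh and Aco1 lay between 46.1 and 49.8 CPM per kb. Idh3a was lowest at each of these hours, at 3.198 ± 1.23, 8.20 ± 0.66 and 7.35 ± 0.764 CPM per kb. Counts per library behind these levels ran from 86 for Idh3a to 18524 for Mdh2, so counting error weighed most on Idh3a. The median coefficient of variation between libraries was 12% for Fh1 and Mdh1, 23.3% for Idh3a and 28% for Idh1.

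**Figure D1:**
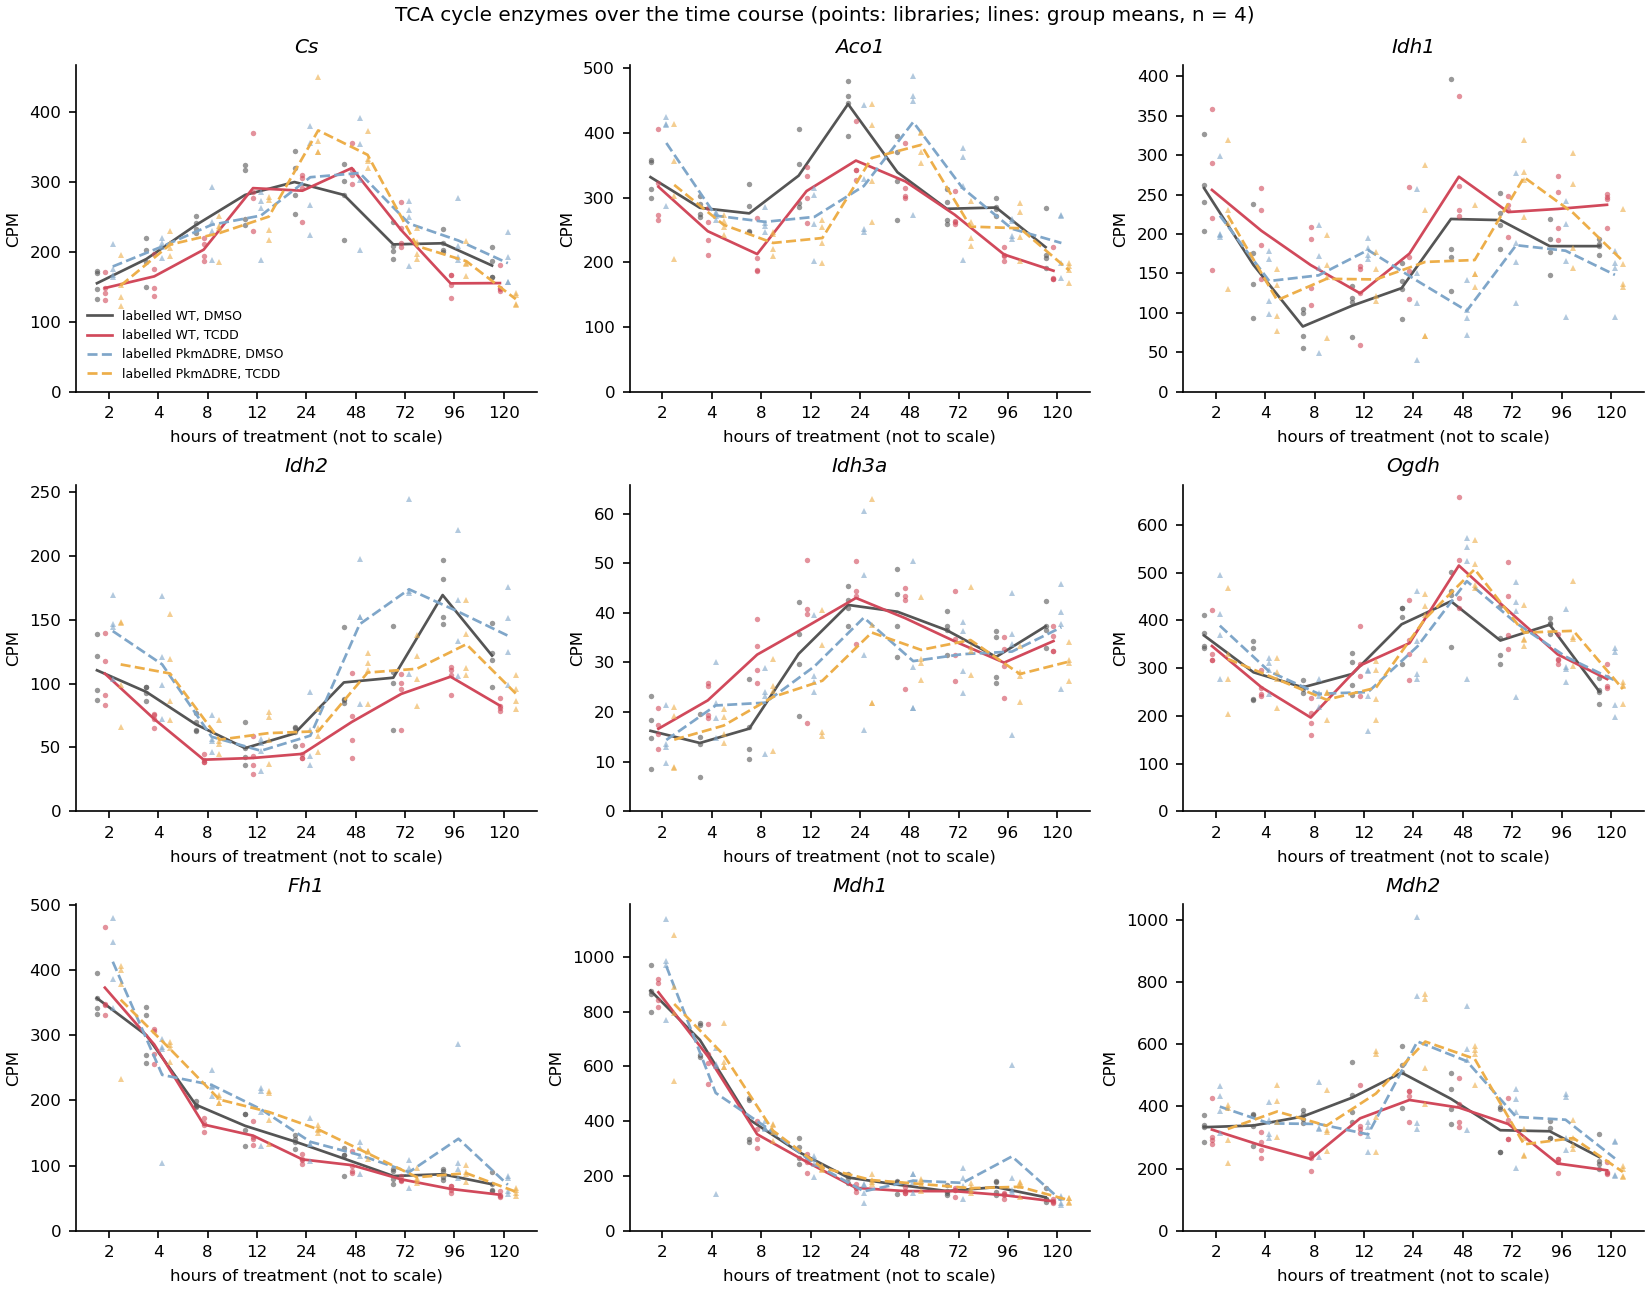
CPM of each of the 9 genes in every library (points) and as group means (lines, n = 4) against hours of treatment, which are evenly spaced and not to scale, for the 4 combinations of genotype label and treatment. Mdh1 and Fh1 fall from 2 h onwards, Cs, Mdh2 and Idh3a rise to 24 or 48 h, Idh2 is lowest between 8 and 24 h, and single vehicle points labelled PkmΔDRE lie low at 4 h and high at 96 h for Mdh1 and Fh1.

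More of the 9 genes were called for time in culture than for TCDD. Changes were called at adjusted p below 0.05 and a fold of at least 1.5 in a fit over the 36 libraries of a label and treatment. Each TCDD comparison used 8 libraries, so these counts come from tests of unlike power. From 2 to 120 h, 7 of the 9 were called in vehicle-treated libraries labelled WT (1 up, 6 down), where 57.9% of all tested genes were called. The counts were 5 (1 up, 4 down) against 53.2% with TCDD under the WT label, 6 (1 up, 5 down) against 49.4% with vehicle under the PkmΔDRE label and 5 (1 up, 4 down) against 49.9% with TCDD under the PkmΔDRE label. The median log2 fold change of the 9 was −0.67 in the first of these and −0.50, −0.78 and −0.57 in the others, beside medians over all tested genes of 0.21, 0.14, 0.24 and 0.11. From 2 to 24 h the called members were 6 (2 up, 4 down), 5 (2 up, 3 down), 5 (2 up, 3 down) and 6 (3 up, 3 down) in the same order of libraries, beside 45.8%, 41.8%, 33.2% and 47% of all genes. From 24 to 120 h they were 7 (1 up, 6 down), 5 (1 up, 4 down), 4 (1 up, 3 down) and 6 (0 up, 6 down), beside 35.6%, 32.3%, 23.4% and 53.5%. As shares of 9 genes these counts lay above the background in each contrast, but the background was itself high. The counts of 5 beside 53.2% and 49.9% were close to it. The contrasts of a series share libraries, so they are not independent of each other. In bulk RNA, fewer cells of a type and less RNA per cell cannot be told apart, and the summed hepatocyte markers fell over the same course, from 123502 to 167542 CPM at 2 h to 2989 to 16605 CPM at 120 h with vehicle under the WT label. The sum of the cholangiocyte markers rose from between 55.8 and 140.8 CPM to between 581 and 1069 CPM. In that sum Spp1 reached the highest level, up to 1204 CPM over all libraries. Summed stellate and fibroblast markers rose from between 5.79 and 13.4 to between 25.7 and 205 CPM. Summed Kupffer cell markers fell from between 157 and 252 to between 20.6 and 113.5 CPM. Summed endothelial markers fell from between 295 and 475 to between 36 and 89.1 CPM. Their part in the changes of the enzymes was not tested.

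Fh1 and Mdh1, which act on fumarate and on cytosolic malate, fell the furthest. With vehicle under the WT label, the 4 libraries held 797.5, 969.4, 865.8 and 874.1 CPM of Mdh1 at 2 h, 193, 204, 176 and 206 CPM at 24 h, and 103.9, 156, 114.7 and 115.7 CPM at 120 h. The 3 hours did not overlap, and over all tested genes the share without overlap in this series was 42.8% between 2 and 24 h, 46.2% between 24 and 120 h and 59.6% between 2 and 120 h. The log2 change of Mdh1 from 2 to 120 h was −3.01 (SE 0.17), and it was −3.12 (0.14), −3.33 (0.43) and −3.05 (0.19) in the other 3 series. Most of this fall came by 24 h, with −2.30, −2.54, −2.86 and −2.24 on the log2 scale. Fh1 went from between 333 and 396 CPM at 2 h to between 61.03 and 90.3 CPM at 120 h with vehicle under the WT label, a log2 change of −2.49 (0.16), with −2.87 (0.16), −2.74 (0.35) and −2.72 (0.19) in the others. Between neighbouring hours in the order of its levels under the WT label and vehicle, Mdh1 was apart in every library at 2 against 4 h, 4 against 8 h and 12 against 24 h, and Fh1 at 4 against 8 h and 8 against 12 h, while the later hours overlapped. The share of all tested genes apart was not taken for these neighbouring hours. Of 8 neighbouring pairs, Mdh1 was apart in 5 with TCDD under the WT label. Under the PkmΔDRE label it was apart in 1 with vehicle and in 4 with TCDD, and Fh1 gave the same 3 counts. The vehicle counts under that label include replicate 4 at 4 h and at 96 h, whose profiles were nearest to other hours. Without replicate 4 at 4 h, Mdh1 was at 600.3 CPM or more at 4 h and at most 401.3 CPM at 8 h. For Fh1 these values were 278.5 and 246.6 CPM. With vehicle under the WT label, Idh2 was apart at 4 against 8 h, and neighbouring hours overlapped throughout for Cs, Aco1, Idh1, Idh3a, Ogdh and Mdh2. The mitochondrial malate dehydrogenase followed another course. Mdh2 went from 333 ± 35.9 CPM at 2 h to 508 ± 83.3 CPM at 24 h and 237 ± 50.6 CPM at 120 h, with only the fall called, at −1.15 on the log2 scale from 24 to 120 h in both treatments under the WT label, −1.43 with vehicle and −1.76 with TCDD under the PkmΔDRE label. From 2 to 120 h Mdh2 fell by 0.67, 0.86, 0.98 and 0.95 on the log2 scale in the 4 series, all called. The rise of Mdh2 from 2 to 24 h passed only with TCDD under the PkmΔDRE label (0.81, SE 0.24). The ratio of Mdh1 to Mdh2 per kb thus went from 3.67 at 2 h to 0.538 at 24 h and 0.719 at 120 h.

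At the entry of the cycle, Cs rose and then returned. With vehicle under the WT label, Cs was at 146, 169, 132.2 and 173 CPM at 2 h, at 281, 320.0, 254 and 345 CPM at 24 h and at 164.5, 207, 186.5 and 164.5 CPM at 120 h. Every 24 h library lay above every library of the other two hours. The log2 change of Cs from 2 to 24 h was 0.82 (SE 0.15), 0.88 (0.16), 0.64 (0.22) and 1.22 (0.17) in the 4 series, and from 24 to 120 h it was −0.78, −0.93, −0.80 and −1.57, all called, so that 120 h did not differ from 2 h by the test in any series (−0.36 to 0.04). Aco1 was highest at 24 h with vehicle under the WT label (445 ± 36.2 CPM against 332 ± 29.5 at 2 h and 224 ± 41.6 at 120 h). It fell from 24 to 120 h by 1.04, 0.97 and 1.02 on the log2 scale in 3 series, while with vehicle under the PkmΔDRE label its −0.55 was not called, and from 2 to 120 h it fell by 0.74, 0.88, 0.94 and 0.93.

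The isocitrate dehydrogenases moved apart. Idh3a rose from 8.45, 18.4, 23.3 and 14.8 CPM at 2 h to 42.5, 40.95, 45.5 and 37.4 CPM at 24 h with vehicle under the WT label, without overlap, and lay between 32.98 and 42.4 CPM at 120 h. Its log2 rise from 2 to 24 h was 1.24 (SE 0.26), 1.32 (0.23), 1.33 (0.36) and 1.3 (0.33) in the 4 series, and 120 h remained above 2 h by 1.04, 0.96, 1.19 and 0.94, all called. Idh3a was the member called upward from 2 to 120 h in every series. Idh2 moved the other way from Idh3a only between 2 and 24 h. With vehicle under the WT label Idh2 went from 110 ± 24.0 CPM at 2 h to 49.5 ± 14.6 CPM at 12 h and 169 ± 23.9 CPM at 96 h. The fall of Idh2 from 2 to 24 h was −0.97 (0.21), −1.34 (0.23), −1.41 (0.3) and −0.97 (0.26) on the log2 scale, and its rise from 24 to 120 h was 0.95, 0.84 and 1.17 in 3 series, with 0.49 (not called) under TCDD and the PkmΔDRE label. From 2 to 120 h its change was not called in any series (−0.50 to −0.02). Idh1, with wide spread, fell from 258 ± 51.6 CPM at 2 h to 82.8 ± 24.0 CPM at 8 h with vehicle under the WT label and stood at 185 ± 8.65 CPM at 120 h. Its −1.09 (0.26) from 2 to 24 h and −0.65 (0.26) from 2 to 120 h were called in that series and missed the call in the others (−0.80 to −0.48 and −0.78 to −0.18).

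Mean Ogdh was lower at 8 h than at 2 h in every series and higher again at 24 h. With vehicle under the WT label it went from 368 ± 32.3 CPM at 2 h to 259.6 ± 11.04 CPM at 8 h, 440 ± 67.5 CPM at 48 h and 252 ± 22.2 CPM at 120 h. Its change from 2 to 24 h was not called in any series (−0.31 to 0.25), and from 24 to 120 h it fell by 0.69 under the WT label with vehicle and by 0.73 under the PkmΔDRE label with TCDD, while the other two series missed the call. From 2 to 120 h Ogdh fell by 0.73 and 0.71 with vehicle under the WT and PkmΔDRE labels, both called, and was at −0.44 and −0.48 with TCDD, not called.

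**Figure D2:**
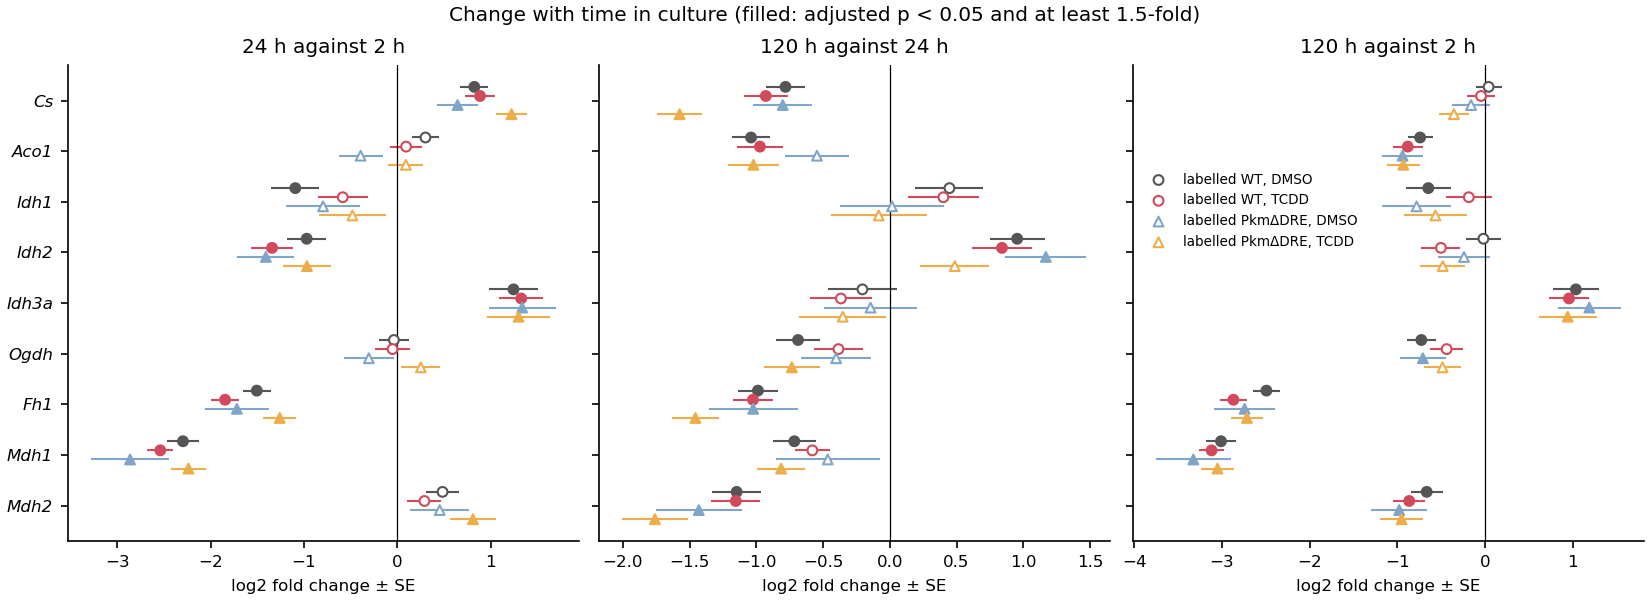
Log2 fold change (points) with its standard error (bars) for each gene between 24 and 2 h, 120 and 24 h, and 120 and 2 h, in the 4 combinations of label and treatment, filled where called. Mdh1 and Fh1 lie far below 0 at 24 against 2 h, Cs and Idh3a lie above it, and Mdh2 lies below it at 120 against 24 h in all 4.

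Few of the 9 genes were called between TCDD and vehicle, 4 at 8 h and 1 at 96 h, both under the WT label. At 8 h in libraries labelled WT, Idh1 and Idh3a rose and Idh2 and Mdh2 fell, 4 of 9 called, in a comparison where 37.4% of all tested genes were called. The share of members called was thus close to the background. The median log2 change of the 9 was −0.28, beside 0.004 over all tested genes. Idh1 was at 70.6, 55.1, 100.1 and 105.4 CPM with vehicle and at 109.6, 131.02, 208.5 and 193 CPM with TCDD. Every TCDD library was above every vehicle library, as the groups were apart for 41.3% of all tested genes in this comparison, and the log2 change was 0.93 (SE 0.23, adjusted p = 0.00742). Idh2 was at 76.6, 69.8, 63.4 and 62.7 CPM with vehicle and at 38.5, 44.7, 38.4 and 40.2 CPM with TCDD. The groups were again apart, and Idh2 fell by 0.79 on the log2 scale (SE 0.14, adjusted p = 0.0017). Mdh2 went from 375, 389, 360.4 and 345 CPM to 249, 235, 193 and 247 CPM, also without overlap, with a log2 change of −0.70 (SE 0.13, adjusted p = 0.00179). Idh3a, with 10.5, 12.6, 17 and 26.6 CPM against 28.5, 25.8, 38.7 and 33.3 CPM, overlapped by a single pair of libraries, and its change of 0.89 (SE 0.27, adjusted p = 0.0168) lost the call without vehicle replicate 2 (0.78, adjusted p = 0.0507) or TCDD replicate 3 (0.78, adjusted p = 0.0561). Ogdh (−0.43) and Aco1 (−0.41) passed the adjusted p (0.0241 and 0.0412) but not the fold, and Fh1, Cs and Mdh1 lay at −0.28, −0.26 and −0.24. The groups did not overlap for Cs, Ogdh and Fh1 either. TCDD replicates 3 and 4 had profiles nearest to 12 h (r = 0.949 and 0.974 against 0.944 and 0.972 for 8 h). All vehicle libraries of this comparison were nearest to 8 h. With vehicle under the WT label, mean Idh1 and Idh3a were higher and mean Idh2 lower at 12 h than at 8 h, as with TCDD. Mean Mdh2 was higher at 12 h, the other way from TCDD. Whether a shift in hour played a part in these calls was not tested.

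**Figure D3:**
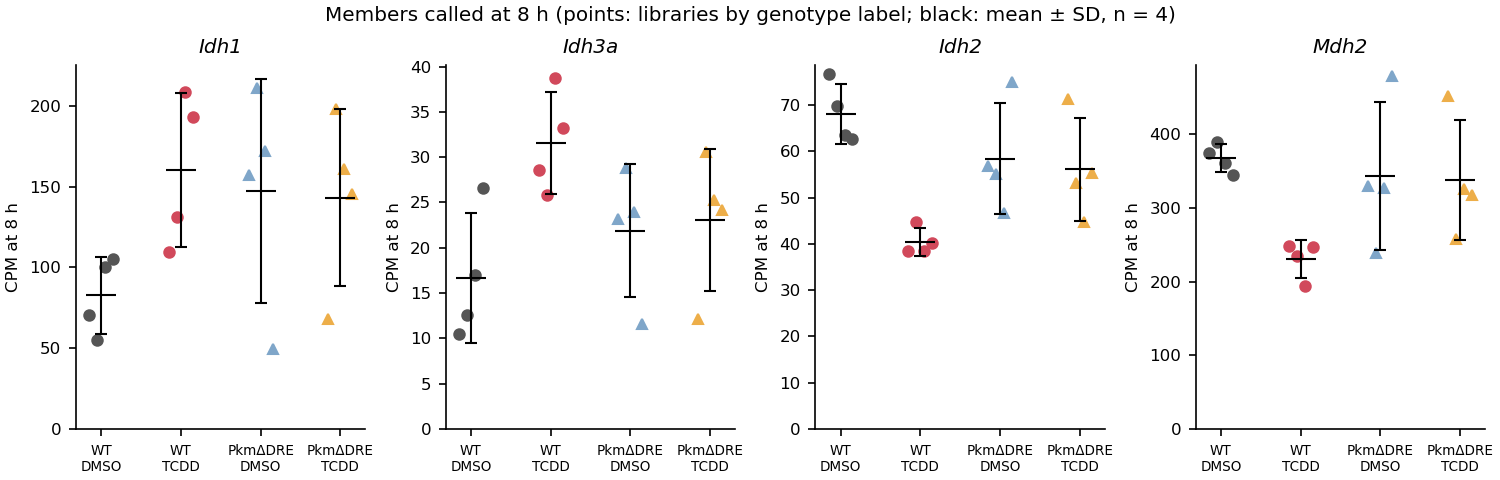
CPM of the 4 genes called at 8 h in every library (points) with the mean ± SD of each group (black, n = 4), by genotype label and treatment. Under the WT label the TCDD points of Idh1 sit above, and those of Idh2 and Mdh2 below, all vehicle points, those of Idh3a overlap by a pair, and under the PkmΔDRE label the points of all 4 genes overlap between treatments.

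The 8 h comparison under the WT label also differed between treatments in base composition and in read classes. Across the 12366 tested genes with a known GC content, the log2 change with TCDD correlated with GC content at a Spearman rho of −0.613, a description across genes, which are not independent replicates. The median log2 change was 1.00 for the 3123 genes under 45% GC and −0.50 for the 2684 genes over 55% GC. The exonic GC content of Idh1 was 43.8% and of Idh3a 46.9%, against 55.6% for Idh2 and 50.9% for Mdh2. With the GC trend removed from each library, Idh1 changed by 0.25 (adjusted p = 0.298), Idh2 by −0.30 (0.0971), Idh3a by 0.53 (0.104) and Mdh2 by −0.56 (0.00404, under the fold), all in the same direction as before, and a single member was then called, Mdh1 at −0.75 (0.0244). In the same comparison 8.36% to 22.0% of uniquely mapped reads fell outside genes in the TCDD libraries and 4.89% to 6.00% in the vehicle libraries. Kupffer cell markers summed to between 63.5 and 113.1 CPM with TCDD and between 140.8 and 192 CPM with vehicle, and hepatocyte markers to between 64353 and 71465 CPM against 73954 and 88435 CPM. With the share of reads outside genes as a covariate the same 4 members were called, at 1.26 for Idh1, −0.74 for Idh2, 1.02 for Idh3a and −0.81 for Mdh2, and with the share of unmapped reads as a covariate they were at 1.01, −0.79, 0.96 and −0.73 and called. The part of the marker genes in these changes was not tested.

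**Figure D4:**
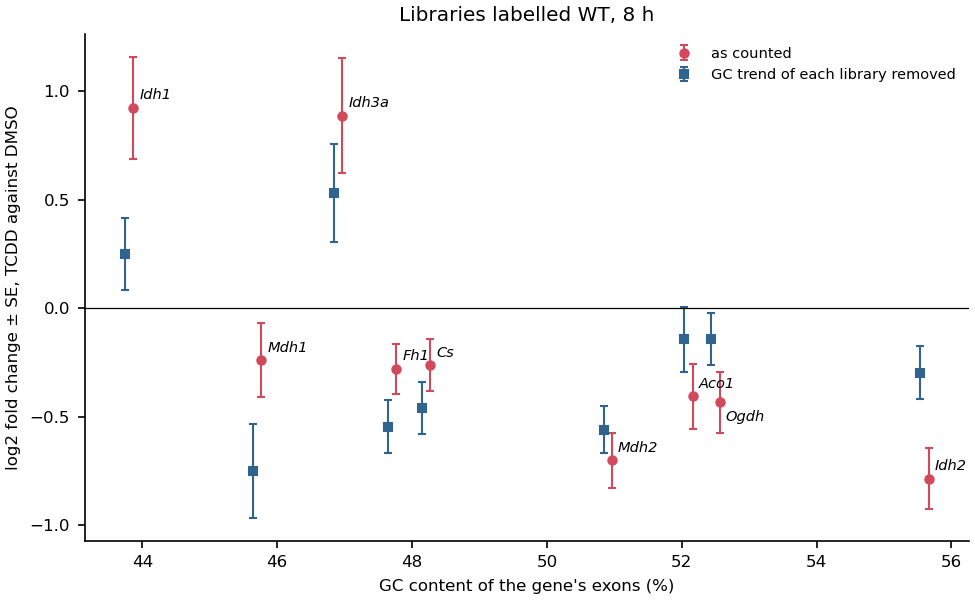
Log2 fold change ± SE with TCDD at 8 h under the WT label for each of the 9 genes against the GC content of its exons (%), as counted (red circles) and with the GC trend of each library removed (blue squares). With the trend removed Idh1, Idh3a, Idh2, Aco1 and Ogdh lie nearer to 0, Mdh1, Fh1 and Cs lie further below it, and no gene changes sign.

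At 96 h under the WT label, Idh2 was the only enzyme called, where 15.1% of all tested genes were called. It was at 147, 152, 182 and 197 CPM with vehicle and at 91.43, 113.02, 106.8 and 110.5 CPM with TCDD, without overlap, as for 33.8% of all tested genes and for Cs, Aco1, Ogdh, Fh1 and Mdh2 in this comparison, a log2 change of −0.62 (SE 0.10, adjusted p = 0.00118). The call was narrow in fold: without vehicle replicate 4 the change was −0.56 and without TCDD replicate 1 it was −0.58, both under the fold, while without vehicle replicate 3, the library with a TCDD-like Cyp1a1 level, it was −0.59 and still called. With the GC trend removed it was −0.41 (adjusted p = 0.0132). With the share of reads outside genes as a covariate Idh2 was at −0.47 (adjusted p = 0.0306, under the fold) and Idh1, at 0.61 (0.0224), was called in its place. Mdh2 (−0.50), Cs (−0.39), Aco1 (−0.37), Fh1 (−0.37) and Idh1 (0.39) passed the adjusted p but not the fold.

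No enzyme was called at any of the other 7 hours under the WT label, where the shares of all genes called were 0.0321% (12 h), 0.373% (24 h), 0.00763% (48 h), 1.46% (120 h) and 0% for the remaining 3 hours. At an unadjusted p below 0.05 2 members passed for 4 h, 3 each for 24 and 120 h, and 0 for the remaining hours, and DESeq2 called none at these hours either. The fitted log2 changes of the 9 spanned −0.09 to 0.07 (2 h), −0.41 to 0.67 (4 h), −0.25 to 0.23 (12 h), −0.36 to 0.49 (24 h), −0.50 to 0.36 (48 h), −0.17 to 0.24 (72 h) and −0.56 to 0.36 (120 h). Under the PkmΔDRE label no member was called at any hour, and the called shares of all genes were 0.106% (8 h), 0.024% (12 h), 0.016% (24 h), 0.404% (48 h), 1.13% (72 h), 0.0793% (96 h), 0.633% (120 h) and 0% for both earlier hours. There 1 member each passed an unadjusted p below 0.05 for 48 and 72 h, 2 for 120 h and 0 for the rest, and DESeq2 called none. The fitted log2 changes spanned −0.23 to 0.08 (2 h), −0.27 to 0.35 (4 h), −0.19 to 0.09 (8 h), −0.37 to 0.47 (12 h), −0.20 to 0.26 (24 h), −0.51 to 0.62 (48 h), −0.68 to 0.51 (72 h), −0.86 to 0.32 (96 h) and −0.59 to 0.14 (120 h). At 8 h under that label Idh1 changed by −0.03 (SE 0.43), Idh2 by −0.06 (0.19), Idh3a by 0.09 (0.36) and Mdh2 by −0.03 (0.21), and the libraries of both treatments overlapped for each. Vehicle replicate 4, at 49.5 CPM of Idh1 beside 157, 211.5 and 172.2 CPM in the others, widened that spread.

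Several members leaned one way across the course. The fitted change of Idh2 was below 0 at 9 of 9 hours under the WT label (−0.79 to −0.03, median −0.41), also with RLE scaling and with the GC trend removed, and at 8 of 9 hours under the PkmΔDRE label (−0.68 to 0.33), 12 h being the exception and 24 h without a sure sign, since its fitted value was 0.00, turned with RLE scaling and stood beside means of 62.7 CPM with TCDD and 59.2 CPM with vehicle. The single hours were called at 8 and 96 h under the WT label. At 120 h Idh2 lay at −0.56 under the WT label and −0.59 under the PkmΔDRE label, and at 48 h at −0.50 and −0.51. At 72 h under the PkmΔDRE label Idh2 was at 107.3, 245, 172.2 and 171 CPM with vehicle and at 103.7, 138.2, 121.8 and 82.5 CPM with TCDD, a change of −0.68 (adjusted p = 0.36). Without vehicle replicate 1, the library nearest to 120 h, 3 members were called there, Idh2 at −0.84 (adjusted p = 0.0258), Idh1 at 0.78 (0.0277) and Mdh2 at −0.63 (0.0326). The fitted change of Idh1 was above 0 at 8 of 9 hours under the WT label and 6 of 9 under the PkmΔDRE label, but removing the GC trend turned its sign at some hours under each label. That of Aco1 was below 0 at 9 of 9 and 8 of 9 hours, down to −0.41, and those of Fh1, Mdh1 and Mdh2 were each below 0 at 8 of 9 hours under the WT label and 7 of 9 under the PkmΔDRE label, 6 of 9 there with the GC trend removed and 9 of 9 for Mdh1 under the WT label with RLE scaling.

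**Figure D5:**
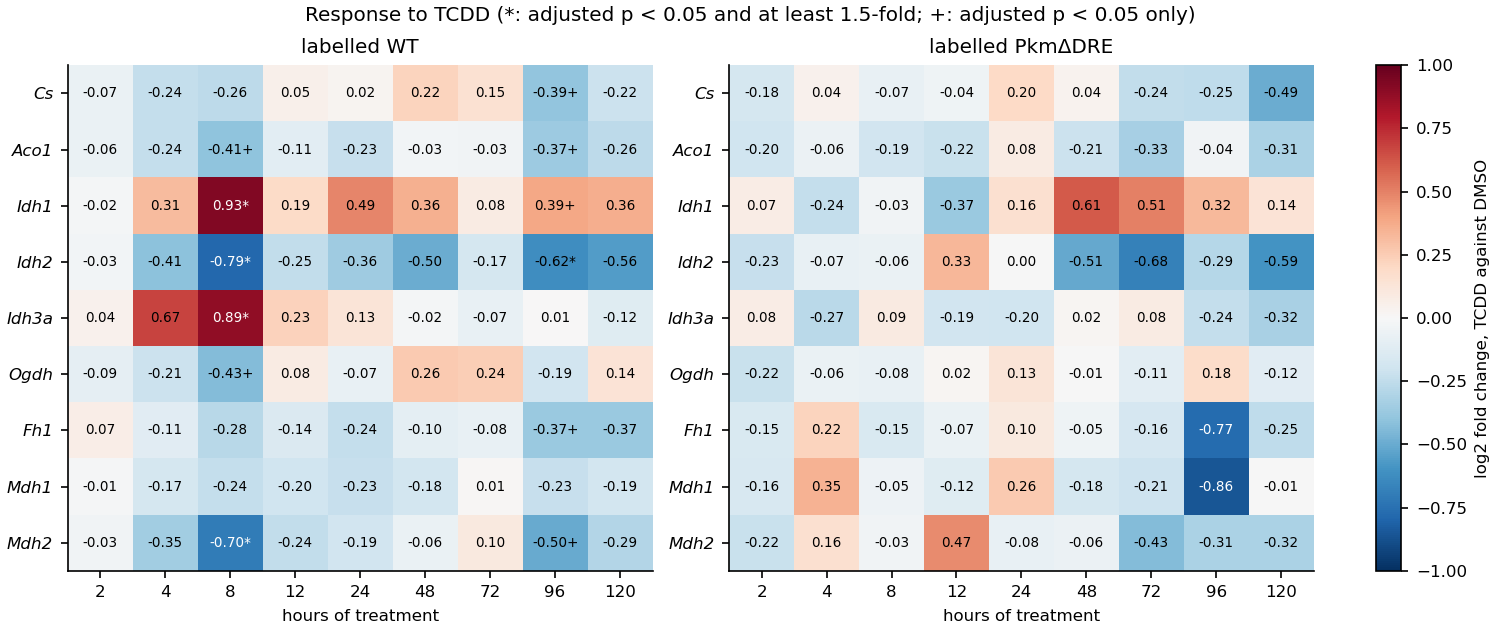
Colour map of the log2 fold change with TCDD against vehicle (printed in each cell) for the 9 genes at each of the 9 hours, under each genotype label, with * for called comparisons and + for those past the adjusted p alone. The * marks are Idh1, Idh2, Idh3a and Mdh2 at 8 h and Idh2 at 96 h, all under the WT label.

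At 96 h under the PkmΔDRE label Fh1 and Mdh1 showed the largest mean differences of the course, which rested on a single library. Fh1 was at 103.6, 81.1, 94.1 and 287 CPM and Mdh1 at 193, 140.4, 149 and 604 CPM in the vehicle libraries, replicate 4 holding the high value of each. The changes with TCDD were −0.77 and −0.86, neither called, and without that library they were −0.11 and −0.04. At 4 h vehicle replicate 4 was low, at 103.4 CPM of Fh1 beside 279 to 294 CPM and at 136.02 CPM of Mdh1 beside 600.3 to 667 CPM, and without it the changes of 0.22 and 0.35 became −0.05 and 0.02. Leaving out both libraries altered no count of called members in the comparisons they enter.

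The difference in TCDD response between the labels was then tested as an interaction. These fits took all libraries of an hour, the same libraries as in the TCDD comparisons above. No member was called at any hour, where the shares of all genes called were 0.00715% (48 h), 0.00695% (72 h) and 0% for every other hour. At an unadjusted p below 0.05 there were 2 members at 8 h, 1 at 4 h and 0 elsewhere, and DESeq2 called none. At 8 h the interaction of Idh1 was −1.07 (SE 0.53, adjusted p = 0.325), of Idh2 0.60 (0.22, 0.292), of Idh3a −0.91 (0.48, 0.335) and of Mdh2 0.55 (0.25, 0.306). The changes seen at 8 h under the WT label and not under the PkmΔDRE label were therefore not shown to differ between the labels.

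Between the labels with vehicle alone, no member was called at any hour either. The shares of all genes called were 0.0576% (8 h), 3.68% (12 h) and 0% for the others, and an unadjusted p below 0.05 was reached by 2 members for 12 h, 1 each for 8, 48 and 72 h, and 0 for the others. DESeq2 called 1 member, Idh1 at 12 h. Idh1 came nearest. At 12 h its 4 libraries lay between 69.9 and 133.85 CPM under the WT label and at 182, 169, 195 and 173 CPM under the PkmΔDRE label, without overlap, as for 15.3% of all tested genes and for Mdh2, a log2 difference of 0.75 (SE 0.19, adjusted p = 0.0571), which DESeq2 called (0.74, adjusted p = 0.0118). At 8 h the difference of Idh1 was 0.84 (SE 0.34, adjusted p = 0.428), and 1.13 and called without the low replicate 4 under the PkmΔDRE label.

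The remaining genes of the cycle were read from a list of 12 further genes, subunits of aconitase 2, isocitrate dehydrogenase 3, 2-oxoglutarate dehydrogenase, succinyl-CoA synthetase and succinate dehydrogenase. At 8 h under the WT label 3 rose with TCDD, among them Dld (the shared dehydrogenase subunit, 1.28) and Sucla2 (a succinyl-CoA synthetase subunit, 1.23), and 3 fell, among them the succinate dehydrogenase subunits Sdhd (−0.77) and Sdhc (−0.68), with a list median of −0.44. In this comparison 37.4% of all tested genes were called. The exonic GC content was 40.6% for Dld and 43.2% for Sucla2, against 49.4% for Sdhd and 48.7% for Sdhc. Genes under 45% GC had a median log2 change of 1.00 there, and the GC trend was not removed for this list. At 96 h under the WT label Sucla2 (0.96) and Dld (0.63) rose and none fell, where 15.1% of all tested genes were called. No gene of this list was called in the other 16 comparisons with TCDD. From 2 to 120 h 9, 8, 8 and 9 of the 12 fell and 0 rose in the 4 series, among them Suclg2 (−2.10, −2.02, −2.33 and −2.09), with list medians of −1.54, −1.40, −1.63 and −1.43. The shares of all tested genes called in these series, in either direction, were 57.9%, 53.2%, 49.4% and 49.9%. Of 19 tested enzymes and carriers that feed or drain the cycle, 5 rose and 5 fell at 8 h under the WT label, with Pdk1 (a kinase that inhibits pyruvate dehydrogenase, 1.03) among the rises and Slc25a1 (the mitochondrial citrate carrier, −0.88) and Pcx (pyruvate carboxylase, −0.74) the largest falls. At 96 h Pdk4 rose (0.93) and Pck2 fell (−0.97). From 2 to 120 h 4, 5, 3 and 4 of the 19 rose and 11, 11, 12 and 12 fell, beside the same shares of all tested genes. Ireb2, the paralog of Aco1 that binds RNA without aconitase activity, rose with TCDD under the WT label at 8 h (1.53) and 96 h (0.80).

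Over the 36 group means, which share time in culture, the 9 genes fell into differing patterns, given here as Pearson correlations of log2 levels without a test. Fh1 and Mdh1 were the closest pair (0.958), followed by Aco1 and Mdh2 (0.83) and Cs and Mdh2 (0.812), while Idh3a ran opposite to Mdh1 (−0.883) and Fh1 (−0.793), and Idh1 and Idh2 correlated at 0.319. Among 12243 genes, the patterns most like Mdh1 were those of Dhrs4 (0.986) and Pdzk1 (0.982), and those most like Fh1 were Rcan1 (0.985) and Asl (0.984). Mdh2 was nearest to Tufm (0.979) and Rps2 (0.968), and Idh3a to Oxsr1 (0.959) and Mtap (0.956). For Cs they were Plpp2 (0.953) and Lrrc59 (0.945), for Ogdh Dis3l2 (0.924), and for Idh2 H2afv (0.931) and Natd1 (0.910). Aco1 was nearest to Chn2 (0.891) and to the cycle gene Dlst (0.883), and Idh1, the least matched, to Bet1 (0.848) and Lpin2 (0.842).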

How the data were processed

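Bulk RNA was sequenced from primary hepatocyte cultures. Per the submitters' processing notes, the authors trimmed reads with Trimmomatic 0.39, checked them with FastQC 0.11.3 (the study's methods name another version) and aligned them with STAR 2.7 to GRCm39. The deposited values are whole-number read counts per gene, of which the unstranded column was used, so reads of a gene and of an overlapping antisense gene cannot be told apart. Groups were taken from the labels. Each comparison was tested with the quasi-likelihood F-test of edgeR 4.0.16 in R 4.3.3 (TMM scaling, filterByExpr with a minimum count of 10 and minimum total of 15, robust fit) with Benjamini-Hochberg adjustment over all tested genes, called at an adjusted p under 0.05 and a fold of 1.5. TCDD was compared with vehicle in the 8 libraries of an hour and label, the labels and the interaction in the libraries of an hour, and time in the 36 libraries of a label and treatment. CPM use TMM library sizes over all libraries. Alternatives were DESeq2 1.42.0, RLE scaling, no filter, other groupings of the fit, a covariate for unmapped or no-gene reads, GC trend removal (lowess span 0.3) and each library left out. Exon lengths and GC content came from GENCODE M21 (GRCm38), promoters from RefSeq GRCm38.p6. The scripts were tested on simulated data. Text rule: all 9 genes are described in full where called and otherwise by range and count, and from each other list at most 2 called genes each way; the 2 most alike genes are named for each; a few results these rules would name are not reported here. The members and lists were chosen with earlier results of these data known. The labels and the protocol text differ on plate format and cell density.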

Additional observations from a re-analysis of the deposited data

Results flagged for a closer look

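In each of 324 sets of 4 libraries (9 genes in 36 groups), the gap of the highest or lowest library to its nearest neighbour was divided by the whole range of the set, and a share above Dixon's 95% critical value marked a library that stood apart. This happened in 29 sets and 22 libraries. Chance alone marks about 1 in 20 groups if the 4 libraries are independent and their spread is normal, which is not known here.

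Vehicle libraries labelled PkmΔDRE stood apart for both Mdh1 and Fh1 at 4 h and at 96 h. Replicate 4 at 4 h was low for Mdh1 (136.02 CPM against 600.3 CPM for its neighbour, gap share 0.874) and Fh1 (103.4 against 279 CPM, 0.918), and replicate 4 at 96 h was high for Mdh1 (604 against 193 CPM, 0.886) and Fh1 (287 against 103.6 CPM, 0.891). These are the libraries whose profile over all genes was nearest to 96 h and to 4 h. TCDD replicate 3 at 120 h under the WT label stood apart for 4 genes, high for Cs (182 against 148 CPM, 0.904), Aco1 (224 against 176 CPM, 0.976) and Mdh2 (220.5 against 187.5 CPM, 0.890) and low for Idh1 (207 against 244 CPM, 0.856). The other libraries of that group were among the most alike within any group. Their mean squared count difference per gene, scaled to counting error, was 4.209, 4.391 and 8.325 by pair. TCDD replicate 4 at 2 h under the WT label, which also had a vehicle-like Cyp1a1 level, was high for Ogdh (421 against 329.5 CPM, 0.872), Fh1 (466 against 349 CPM, 0.874) and Mdh2 (428 against 301 CPM, 0.852).

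Under the WT label the others were Aco1 in TCDD replicate 1 at 24 h (419 CPM, 0.833) and replicate 2 at 72 h (309.7 CPM, 0.907), Idh2 in vehicle replicate 2 at 48 h (145 CPM, 0.950), Idh3a in TCDD replicate 2 at 48 h (24.6 CPM, 0.881), Ogdh in vehicle replicate 3 at 24 h (309 CPM, 0.848) and TCDD replicate 2 at 96 h (370.3 CPM, 0.851), Mdh1 in vehicle replicate 4 at 48 h (136.03 CPM, 0.889), and Mdh2 in TCDD replicate 2 at 12 h (468 CPM, 0.846) and replicate 3 at 24 h (350.1 CPM, 0.854). Under the PkmΔDRE label they were Cs in TCDD replicate 1 at 24 h (450.3 CPM, 0.852), Aco1 in vehicle replicate 2 at 2 h (287 CPM, 0.910), Idh1 in vehicle replicate 4 at 2 h (299 CPM, 0.962) and TCDD replicate 2 at 48 h (236.5 CPM, 0.833), Ogdh in vehicle replicate 2 at 48 h (277.5 CPM, 0.833) and TCDD replicate 2 at 8 h (190.4 CPM, 0.971), Fh1 in TCDD replicate 2 at 2 h (233 CPM, 0.842) and replicate 4 at 48 h (109.5 CPM, 0.868), and Mdh1 in TCDD replicate 1 at 4 h (759 CPM, 0.896).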

How the results depend on the processing

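No paired analysis was possible because the labels give no replicate numbers shared between groups. The counts of called members that moved by over 1.5 times or to or from 0 were as follows. With the GC trend removed the count was 1 (Mdh1, not among the 4) in place of 4 at 8 h under the WT label, 0 in place of 1 at 96 h, and 4 in place of 7 between 2 and 120 h with vehicle under the WT label. With a covariate for unmapped reads it was 0 at 96 h under the WT label, 4 between 2 and 120 h with vehicle under that label, and 3 in place of 6 with vehicle and 3 in place of 5 with TCDD under the PkmΔDRE label. With 1 fit per genotype label the count at 96 h under the WT label was 0, and without the fold threshold it was 6, as it was at 8 h. Without the filter on low counts 1 member was called in the interaction at 8 h, 1 between the labels with vehicle at 8 h and 1 at 12 h, each Idh1, and DESeq2 also called 1 at 12 h. Adding the unmapped-read covariate reversed 3 signs, to 0.52 for Fh1 and 0.69 for Mdh1 with TCDD at 96 h under the PkmΔDRE label and to 0.83 for Idh1 between 2 and 120 h with TCDD under that label. At 96 h there the unmapped share was 1.96% to 2.90% with TCDD and 4.30% to 11.13% with vehicle. With TCDD under that label it was 8.39% to 9.68% at 2 h and 2.20% to 2.48% at 120 h. The covariate and the contrast cannot be told apart in these comparisons. The cause of the reversals was not tested. Over single libraries left out, the counts ran from 0 to 1 at 96 h (0 without vehicle replicate 4 or TCDD replicate 1) and from 0 to 1 at 120 h under the WT label, where Idh2 reached −0.66 without vehicle replicate 3 and −0.59 without TCDD replicate 3. They ran from 0 to 1 at 48 h (Idh2 at −0.71 without vehicle replicate 2) and from 0 to 3 at 72 h under the PkmΔDRE label, from 0 to 1 between the labels at 8 h, and from 2 to 4 between 24 and 120 h with vehicle under the PkmΔDRE label, 2 without replicate 4 at 24 h. Smaller moves over single libraries were 3 to 4 at 8 h under the WT label and, among the time contrasts, up to 5 to 7 between 2 and 120 h with vehicle under the WT label and 4 to 7 with TCDD under the PkmΔDRE label. RLE scaling moved all log2 changes by up to −0.13 (2 to 24 h, vehicle, WT label). Over all genes, 4640 were called at 8 h under the WT label and 2525 with the GC trend removed, and 2085 at 96 h against 1169 with it removed and 120 in 1 fit per label. The lowest counts, those of Idh3a, limit its precision.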
